A study of Mus musculus with 9 samples.

Results

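The 8 noncoding RNA genes followed here, known to respond to stress in many cells, were measured in naive CD4+ T cells of the mouse spleen: Malat1, Neat1, Gas5, Snhg1, Snhg8, Snhg12, Snhg15 and Kcnq1ot1. These 8 were a named set, found by matching the deposited gene IDs to symbols, out of 55487 genes in the files. The set was chosen with earlier results of these data known. All 8 were among the 13374 genes with enough reads to test. The libraries were made from poly(A) RNA of naive CD4+ T (TN) cells, helper T cells that have not met their antigen. All mice were wild type (WT) of strain C57BL6/J, and the 9 libraries formed 3 groups of 3. The untreated group had no treatment, the anti-IL-1b group received neutralizing antibodies against IL-1b on 10 consecutive days, and the MCC950 group received MCC950 on 10 consecutive days. The cytokine IL-1b drives inflammation, and the compound MCC950 blocks NLRP3, a sensor protein upstream of the cleavage and release of mature IL-1b. The labels give no age, sex, dose, injected control, sort gate or mouse of origin, and they do not state whether each library had a mouse of its own. The p-values therefore measure only the library-to-library spread, which may be technical. The design compares RNA levels of these cells with and without each of the 2 blocks on IL-1b.

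The 8 RNAs belong to 3 kinds. Gas5, Snhg1, Snhg8, Snhg12 and Snhg15 are small nucleolar RNA (snoRNA) hosts: their introns are cut out and trimmed to snoRNAs, which guide the modification of ribosomal RNA. The spliced exons of many such hosts are exported and then destroyed by nonsense-mediated decay, a pathway that runs during translation and removes RNAs with early stop codons, and many hosts begin with the pyrimidine run of 5′ terminal oligopyrimidine (TOP) RNAs. Gas5 is named for its rise in cells that stop growing, and Snhg15 is known as a short-lived RNA that responds to stress. Malat1 is a very abundant nuclear RNA of the speckles, where splicing factors gather, and Neat1 is the scaffold of paraspeckles, nuclear bodies that hold RNA-binding proteins. Kcnq1ot1 is an unspliced antisense RNA of an imprinted domain, made from the paternal chromosome, where it silences neighbouring genes in cis.

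The promoters of the snoRNA hosts are shown because these 5 genes all fell in CPM in both comparisons with untreated below. Gas5 fell least, and its differences were not called in TPM. Sequences are from RefSeq on build GRCm38.p6, which has the coordinates of mm10, and run 5′ to 3′ on the strand of the gene from 160 bases before to 50 bases after the start site. Capitals mark matches to TGACG, the core of the cAMP response element (CRE) that ATF and CREB family factors are known to bind, to the whole element TGACGTCA, and to the E-box CACGTG. Gas5 has a pair of RefSeq start sites, of which the downstream one is shown. The windows are chr11:6528711-6528920 on the minus strand for Snhg15, chr1:161035006-161035215 on the plus strand for Gas5, chr3:123508287-123508496 on the minus strand for Snhg8, chr4:132308518-132308727 on the plus strand for Snhg12 and chr19:8723327-8723536 on the plus strand for Snhg1.
Snhg15: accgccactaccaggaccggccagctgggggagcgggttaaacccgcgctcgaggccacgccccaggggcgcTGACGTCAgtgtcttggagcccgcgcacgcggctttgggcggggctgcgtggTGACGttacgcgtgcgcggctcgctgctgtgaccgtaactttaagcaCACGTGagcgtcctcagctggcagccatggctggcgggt
Gas5: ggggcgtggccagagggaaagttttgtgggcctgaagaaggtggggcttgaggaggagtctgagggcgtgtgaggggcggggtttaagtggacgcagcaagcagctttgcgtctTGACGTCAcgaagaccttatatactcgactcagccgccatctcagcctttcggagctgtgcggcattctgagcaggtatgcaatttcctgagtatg
Snhg8: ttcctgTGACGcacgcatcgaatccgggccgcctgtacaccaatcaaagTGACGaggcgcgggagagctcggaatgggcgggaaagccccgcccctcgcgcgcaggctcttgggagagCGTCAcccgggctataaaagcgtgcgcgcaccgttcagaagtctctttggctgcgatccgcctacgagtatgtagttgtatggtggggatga
Snhg12: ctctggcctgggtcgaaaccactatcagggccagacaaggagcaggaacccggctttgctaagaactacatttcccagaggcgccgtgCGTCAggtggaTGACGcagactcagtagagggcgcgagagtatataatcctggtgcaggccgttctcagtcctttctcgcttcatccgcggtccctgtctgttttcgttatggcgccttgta
Snhg1: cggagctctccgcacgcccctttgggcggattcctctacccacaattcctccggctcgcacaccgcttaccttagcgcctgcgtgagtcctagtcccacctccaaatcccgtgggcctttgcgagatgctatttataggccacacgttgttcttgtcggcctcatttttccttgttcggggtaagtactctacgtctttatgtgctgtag

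Of the 8 members, 7 had a promoter in the RefSeq table, with 8 promoters in all, each searched over 300 bases from 250 before to 50 after the start site and on both strands. TGACG was found in 6 of the 8 promoters, those of Gas5 (the downstream start), Snhg8, Snhg12, Snhg15, Malat1 and Kcnq1ot1, and in 20.8% of the 32851 promoters of the table. Snhg8, Snhg15 and Malat1 had 3 matches each, a number reached by 1.03% of all promoters. The whole element TGACGTCA, which holds 2 overlapping copies of the core, lay 46 bases before the downstream start of Gas5 and 88 bases before that of Snhg15, and was present in 1.79% of all promoters. CACGTG was found 12 bases into the Snhg15 transcript and in 7.15% of all promoters. A run of at least 5 pyrimidines beginning with C, within 10 bases of the start site, was present in Gas5, Snhg8 and Snhg12 and in 29% of all promoters. The AP-1 element TGANTCA (7.81% of all promoters) and the heat shock core GAANNTTC (7.86%) were in none of the 8. The promoter of Malat1, at chr19:5802623-5802832 on the minus strand, is shown because it carried 3 matches although Malat1 is not a snoRNA host.
Malat1: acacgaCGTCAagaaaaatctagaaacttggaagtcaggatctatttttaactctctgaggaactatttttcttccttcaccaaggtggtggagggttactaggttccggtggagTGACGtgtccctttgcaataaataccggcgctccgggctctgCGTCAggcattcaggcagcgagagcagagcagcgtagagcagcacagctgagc

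**Figure D1:**
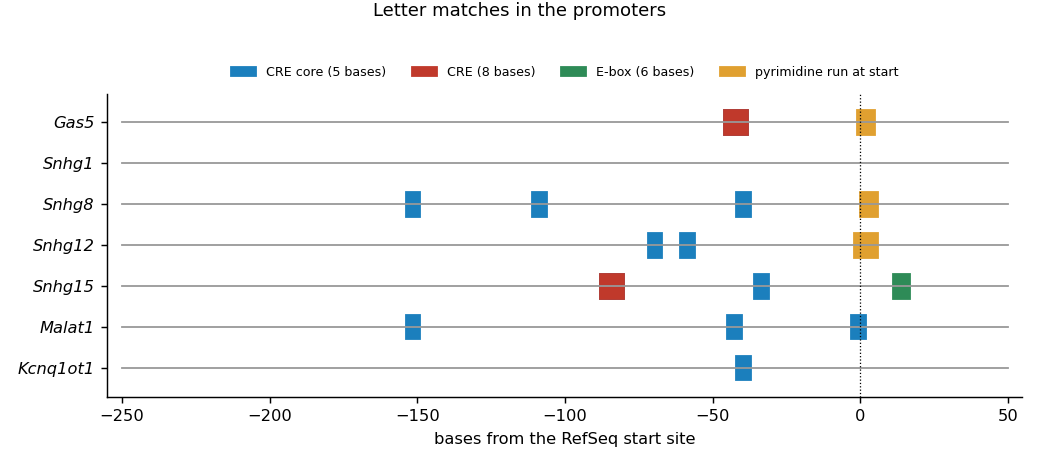
Positions of letter matches in the promoters of 7 of the 8 genes, in bases from the RefSeq start site (dotted line, x axis), with 1 row per gene and the downstream start shown for Gas5. Blue bars are matches to the 5-base CRE core, red bars whole CREs, the green bar an E-box and yellow bars pyrimidine runs at the start; Snhg1 has no bar.

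Levels between genes can be compared per length, as TPM, RSEM's estimate of transcript abundance relative to length and to the library. How fully the poly(A) libraries captured each of the 8 RNAs was not tested, so the order below is that of the captured RNA. In untreated cells Gas5 had the highest TPM of the 8 at 646 ± 33.2 (SD, n = 3), followed by Malat1 at 492 ± 10.1, Snhg8 at 317 ± 23.8, Snhg1 at 280 ± 7.10, Snhg12 at 182 ± 17.3, Neat1 at 124 ± 1.57 and Snhg15 at 109 ± 5.86. No 2 neighbours in this order overlapped between their libraries. Kcnq1ot1 was far below at 0.383 ± 0.0416 TPM, over an annotated length of 93092 bases. The first 7 stood above at least 90.9% of the tested genes in untreated TPM, and Kcnq1ot1 above 5.50%. In both treated groups Neat1 stood above Snhg12 in TPM, the reverse of the untreated order, and with MCC950 the libraries of Snhg1 and Neat1 overlapped. Levels below are in CPM, each gene's counts relative to its library's total, scaled between libraries by edgeR's TMM method, which suits comparisons of 1 gene between groups.

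Each inhibitor group was first compared with the untreated group, whose 3 libraries serve both comparisons. All 8 RNAs passed the test with the antibody, 6 lower and 2 higher, against 34% of all tested genes called (18.5% lower and 15.4% higher). With MCC950, 7 of 8 passed, 6 lower and 1 higher, against 36.8% called (19.1% lower and 17.7% higher). Because the set was chosen with earlier results of these data known, these counts do not test for an excess. Scaling by library totals in place of TMM changed the split over all tested genes from 2066 higher and 2479 lower to 3929 and 1344 with the antibody, and from 2369 and 2552 to 4009 and 1587 with MCC950, with 7 and 8 of the 8 RNAs called. The 5 snoRNA hosts and Malat1 were the ones that fell, with the exception that Malat1 with the antibody had no fall when libraries were scaled by their totals or in TPM. Kcnq1ot1 rose in both comparisons, and Neat1 was higher by a small margin that passed with the antibody only. The CPM ranges of the untreated and treated libraries did not overlap for any of the 8 in either comparison, as was the case for 43.2% of tested genes with the antibody and 47.3% with MCC950. The median log2 fold change of the 8 was -0.45 with the antibody and -0.42 with MCC950, beside 0.00 and 0.01 over all tested genes.

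**Figure D2:**
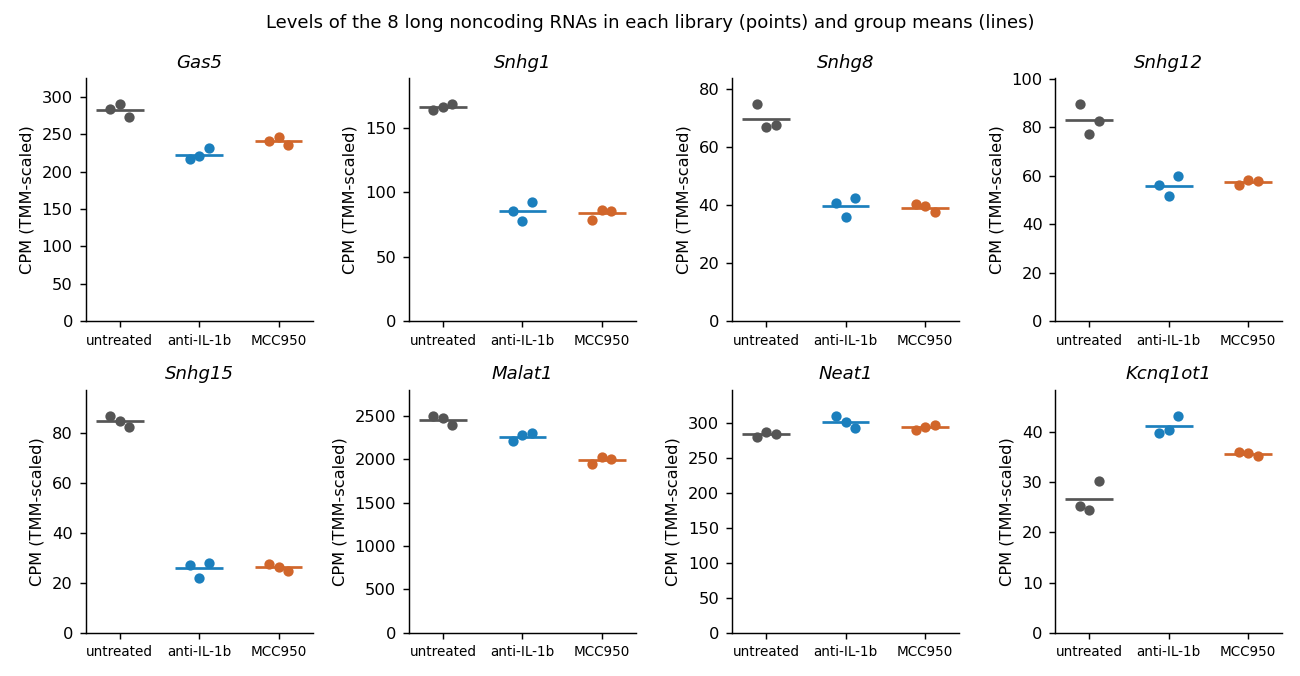
CPM (y axis, TMM-scaled, from 0) of each of the 8 RNAs in the 9 libraries, as points by group, with lines at the group means. Snhg15 lies between 82.4 and 87.0 in the untreated libraries and between 22.1 and 28.0 in the 6 treated ones, while Neat1 stays between 280 and 311 in all 9.

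Snhg15, host of Snora9, had the largest change of the 8. Its level was 87.0, 84.9 and 82.4 CPM in the untreated libraries, 27.4, 22.1 and 28.0 CPM in the antibody group, and 27.4, 26.4 and 25.0 CPM in the MCC950 group. The highest treated library thus held less Snhg15 than any untreated one by a wide gap, and the treated groups overlapped each other. The log2 fold change was -1.71 ± 0.08 (SE) with the antibody (edgeR adjusted p = 6.13e-21) and -1.69 ± 0.08 with MCC950 (edgeR adjusted p = 6.31e-21), which left 30.5% and 31.0% of the untreated level in CPM. In TPM, which divides by the estimated length, the level was 109 ± 5.86 untreated, 46.2 ± 3.19 with the antibody and 51.3 ± 3.35 with MCC950 (SD, n = 3). The fall was smaller on that scale, with differences of -1.22 and -1.07 in log2(TPM + 1) (limma adjusted p = 2.82e-06 and 7.13e-06). Of all tested genes, 1.6% had a lower log2 fold change with the antibody and 1.74% with MCC950.

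Snhg1, which carries 8 annotated snoRNA genes in its introns, was at 164, 166 and 168 CPM in untreated cells. It was at 85.1, 78.0 and 92.2 CPM in the antibody libraries and at 78.8, 86.6 and 85.3 CPM in the MCC950 libraries. Every treated library lay well below every untreated one. The log2 fold change was -0.96 ± 0.05 (SE, edgeR adjusted p = 1.46e-18) with the antibody and -0.99 ± 0.05 (SE, edgeR adjusted p = 4.82e-19) with MCC950, or 51.3% and 50.4% of the untreated level.

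Snhg8, a short host of Snora24, measured 74.7, 67.0 and 67.5 CPM in untreated libraries. The antibody libraries held 40.7, 36.0 and 42.7 CPM and the MCC950 libraries 40.4, 39.7 and 37.5 CPM, all below the untreated range. Snhg8 fell by 0.81 ± 0.07 on the log2 scale with the antibody (SE, edgeR adjusted p = 7.01e-12) and by 0.83 ± 0.07 with MCC950 (SE, edgeR adjusted p = 2.64e-12). Snhg12, with 5 annotated snoRNA genes, measured 89.4, 77.2 and 82.6 CPM in untreated cells. Its antibody libraries held 56.3, 51.6 and 60.0 CPM and its MCC950 libraries 56.1, 58.3 and 57.7 CPM, again with no overlap. Snhg12 thus stood at 67.5% of its untreated level with the antibody (log2 fold change -0.57 ± 0.07, SE, edgeR adjusted p = 3.71e-09) and 69.2% with MCC950 (-0.53 ± 0.06, SE, edgeR adjusted p = 1.25e-08).

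Gas5, the host with the most snoRNA genes (10 annotated), was the most abundant host and changed the least of the 5. Untreated libraries held 283, 289 and 272 CPM, antibody libraries 216, 220 and 231 CPM and MCC950 libraries 240, 246 and 235 CPM. The untreated libraries were highest, and the antibody libraries were lower than the MCC950 ones without overlap. The log2 fold change was -0.34 ± 0.04 (SE, edgeR adjusted p = 4.51e-10) with the antibody and -0.23 ± 0.04 (SE, edgeR adjusted p = 1.79e-06) with MCC950. In TPM the Gas5 groups overlapped, at 646 ± 33.2 untreated, 605 ± 18.1 with the antibody and 628 ± 25.8 with MCC950 (SD, n = 3), and a limma test of log2(TPM + 1) called neither difference (adjusted p = 0.153 and 0.557). Gas5 shares its first bases with Zbtb37, a zinc finger protein gene on the opposite strand, at 161034422 to 161034849 of chromosome 1. No source used here says if strand entered the counting, and reads of that stretch may have gone to either gene. Zbtb37 was higher with the antibody by 0.31 ± 0.05 and with MCC950 by 0.17 ± 0.05 on the log2 scale (SE, edgeR adjusted p = 2.05e-06 and 0.0038), and neither difference was called in TPM.

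Together the 5 hosts took 0.0647% ± 0.00128 of all counts in untreated libraries, 0.0443% ± 0.00236 with the antibody and 0.0457% ± 0.000902 with MCC950 (SD, n = 3). The falls of Snhg1, Snhg8, Snhg12 and Snhg15 passed the test under all 19 other settings tried in both comparisons. The 25 snoRNA genes annotated within the 5 hosts were listed at 0 in all 9 libraries, and the snoRNAs, which carry no poly(A) tail, were not measured by these poly(A) libraries.

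**Figure D3:**
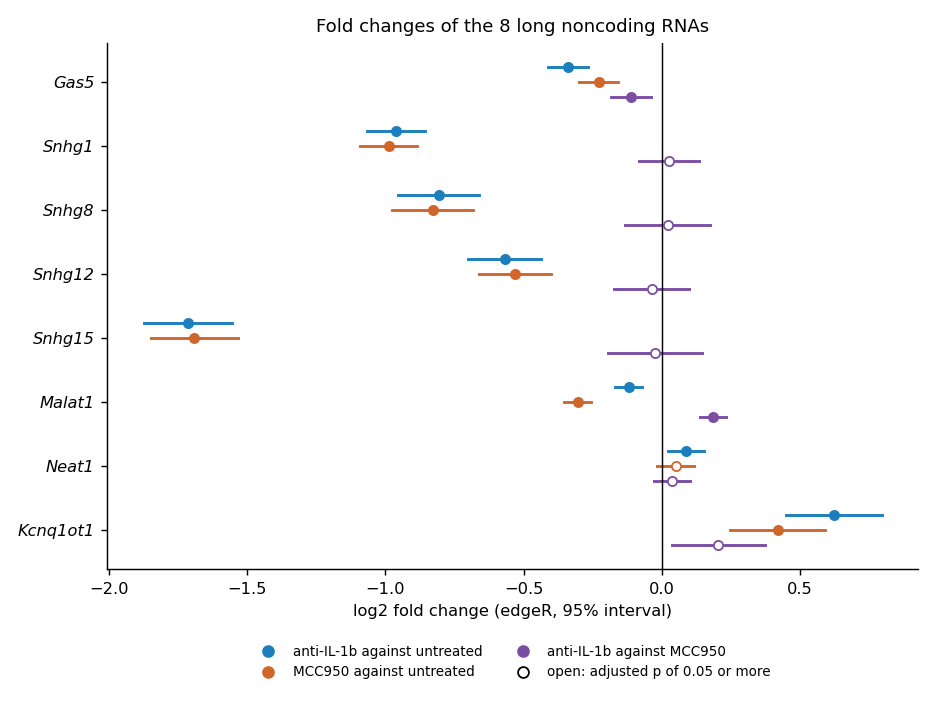
Log2 fold changes (x axis) of the 8 RNAs in the 3 comparisons, as points with 95% intervals from edgeR, where filled points passed an adjusted p of 0.05. The blue and orange intervals of Snhg1, Snhg8, Snhg12 and Snhg15 lie far left of 0 and their purple intervals cross it; the blue point of Malat1 moves to the right of 0 when libraries are scaled by their totals or in TPM.

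Malat1 was the most abundant of the 8 in CPM. Untreated libraries held 2503, 2478 and 2397 CPM, antibody libraries 2207, 2279 and 2303 CPM and MCC950 libraries 1944, 2024 and 2006 CPM. The 3 groups formed 3 steps with no overlap, untreated highest and MCC950 lowest. With MCC950 the log2 fold change was -0.30 ± 0.02 (SE, edgeR adjusted p = 8.46e-14), and this call held under all 19 other settings. With the antibody it was -0.12 ± 0.02 (SE, edgeR adjusted p = 7.98e-05), but it was 0.0071 with library totals and 0.034 in log2(TPM + 1), neither called, so the direction depends on how libraries are scaled. Under library-total scaling the median over all tested genes was 0.13 with the antibody and 0.12 with MCC950 on the log2 scale, which is about the size of this difference. As a share of all counts Malat1 was 0.232% ± 0.00545 in untreated, 0.234% ± 0.00540 in antibody and 0.204% ± 0.00447 in MCC950 libraries (SD, n = 3).

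Neat1, whose gene is next to that of Malat1 on chromosome 19, had the smallest change of the 8 against untreated in TMM-scaled CPM. Its level was 280, 288 and 284 CPM in untreated libraries, 311, 302 and 293 CPM in antibody libraries and 290, 295 and 298 CPM in MCC950 libraries. All treated libraries were above all untreated ones, by a margin of a few CPM at the nearest pair. The log2 fold change was 0.09 ± 0.03 (SE, edgeR adjusted p = 0.0346) with the antibody and 0.05 ± 0.03 (SE, edgeR adjusted p = 0.239) with MCC950. The antibody call was lost without untreated replicate 1, 2 or 3 (edgeR adjusted p = 0.0801, 0.0516 and 0.0805) and without antibody replicate 1 or 2 (edgeR adjusted p = 0.16 and 0.0827), and also when genes with few counts were kept (0.0726). The MCC950 difference passed with upper-quartile scaling, library totals and TPM (adjusted p = 0.032, 8.34e-05 and 0.0171). The direction was the same in all of these, but the size was not: with the antibody it was 0.22 with library totals and 0.24 in log2(TPM + 1), and with MCC950 0.16 in both. On those scales Malat1 with the antibody and Gas5 with MCC950 changed less than Neat1. In log2(TPM + 1) this also held for Gas5 with the antibody.

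Kcnq1ot1 was the member that rose most. Untreated libraries held 25.3, 24.5 and 30.2 CPM, antibody libraries 39.8, 40.4 and 43.2 CPM and MCC950 libraries 36.1, 35.8 and 35.2 CPM. The 3 groups did not overlap, with the antibody group highest. The log2 fold change was 0.62 ± 0.09 (SE, edgeR adjusted p = 1.44e-07) with the antibody and 0.42 ± 0.09 (SE, edgeR adjusted p = 1.20e-04) with MCC950. On log2(TPM + 1), a scale that flattens a gene at less than 1 TPM, the differences were 0.27 and 0.16 and were not called (limma adjusted p = 0.114 and 0.336). Kcnq1ot1 lies on the opposite strand within Kcnq1, a potassium channel gene that was listed at 0 in all 9 libraries.

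**Figure D4:**
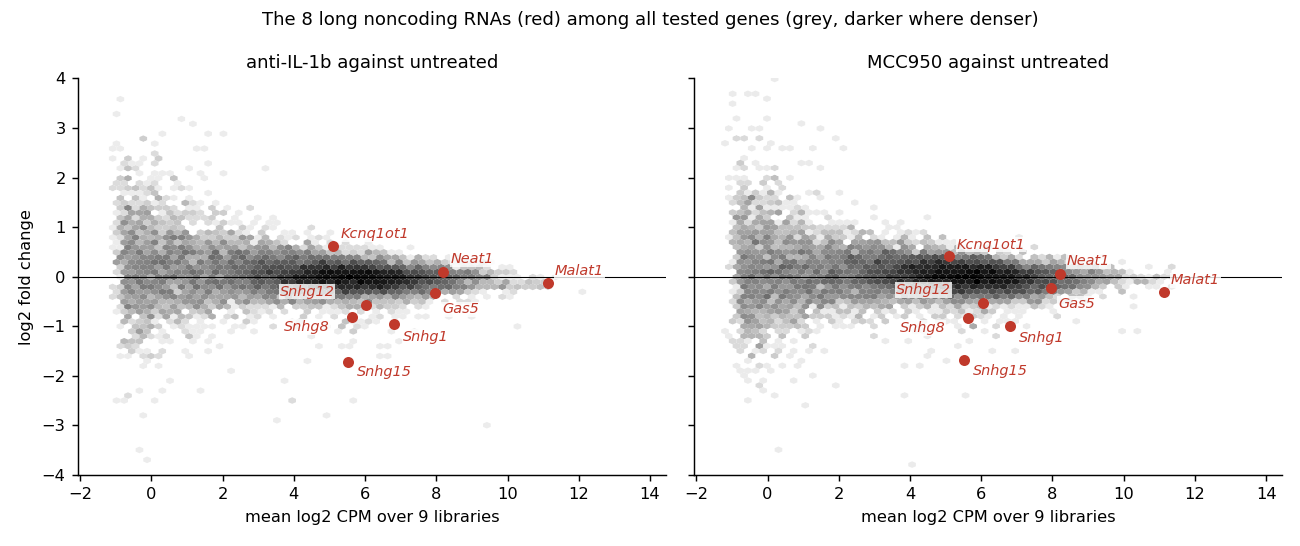
Log2 fold change (y axis) against mean log2 CPM (x axis) for all tested genes (grey cells, darker where more genes lie, on a log colour scale) with the 8 RNAs in red, for each inhibitor against untreated. The 96 genes with the antibody and 85 with MCC950 beyond 4 in either direction are not drawn; Snhg15, Snhg1 and Snhg8 lie below the dense band of genes of like level, and Neat1 lies inside it.

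The inhibitor groups were then compared with each other, which shows whether the antibody and the NLRP3 inhibitor gave different levels. Of the 8 RNAs, 2 differed, against 13.2% of tested genes called (6.13% higher and 7.11% lower with the antibody). Malat1 was higher with the antibody than with MCC950 by 0.18 ± 0.02 on the log2 scale (SE, edgeR adjusted p = 2.25e-07). Gas5 was lower with the antibody, at -0.11 ± 0.04 (SE, edgeR adjusted p = 0.0341). The Gas5 call was lost without antibody replicate 1 or 2 (log2 fold change -0.09 and -0.10) and without MCC950 replicate 1, 2 or 3 (-0.11, -0.10 and -0.12), and it did not pass with RLE, upper-quartile or library-total scaling or in TPM. Kcnq1ot1 differed by 0.20 ± 0.08 (SE, edgeR adjusted p = 0.105), which missed the threshold although its groups did not overlap, as was so for 3 of the 8 and for 29.4% of tested genes. For the 4 other hosts the differences were near 0 and their 95% intervals bound them: -0.08 to 0.13 for Snhg1, -0.13 to 0.17 for Snhg8, -0.17 to 0.10 for Snhg12 and -0.19 to 0.15 for Snhg15. The interval for Neat1 was -0.03 to 0.10.

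The deposited files also give each gene's length as the average over its isoforms, weighted by their estimated abundance, so a length that differs between libraries reflects a different estimated mix of isoforms. Kcnq1ot1 has 1 isoform and the other 7 have 3 to 25. Between untreated and antibody libraries the lengths of 3 of these 7 did not overlap, beside 16.4% of the 10592 tested genes with a length that varies, and with MCC950 5 of 7 did not overlap, beside 18.1%. Without antibody replicate 2 the first of these counts was 5. Between the inhibitors 1 of 7, Snhg15, did not overlap, beside 13.8%, and this count was 2 without antibody replicate 3 or MCC950 replicate 3, 3 without MCC950 replicate 2 and 4 without antibody replicate 2. Every treated library had a lower length than every untreated one for Snhg15 and Gas5, and a higher one for Snhg12. An exact permutation test of 3 libraries against 3 cannot go below 0.1, so none of these differences could pass (exact permutation p = 0.1, adjusted 0.233). When the 6 treated libraries were pooled against the 3 untreated ones, a grouping added after the values were seen, these 3 of 7 did not overlap, which follows from the separate comparisons and is no further evidence. In this grouping 7.51% of varying genes showed no overlap.

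Snhg15 had weighted lengths of 1241, 1307 and 1266 bases in untreated libraries, 1055, 992 and 1115 bases with the antibody and 939, 974 and 972 bases with MCC950. The 3 groups formed descending steps without overlap. These lengths exceed the longest Snhg15 isoform of the GENCODE M21 annotation, 675 bases, so the authors' annotation of this gene differs from M21, and which isoforms shifted cannot be named. Snhg12 had lengths of 825, 832 and 860 bases untreated, 1091, 992 and 976 bases with the antibody and 922, 983 and 965 bases with MCC950. Its treated libraries were all longer than its untreated ones, opposite to Snhg15. Gas5, of whose 25 isoforms 20 are annotated with a retained intron, had lengths of 811, 797 and 822 bases untreated, 773, 762 and 772 bases with the antibody and 777, 767 and 785 bases with MCC950. The Gas5 shift of 40.7 bases with the antibody was small beside the 217 bases of Snhg15.

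Malat1 and Snhg8 were longer without overlap with MCC950 only, at 6980 ± 5.48 against 6922 ± 25.3 bases and 532 ± 9.15 against 521 ± 0.850 bases (SD, n = 3). For Snhg8 the nearest libraries were at 522.46 bases with MCC950 and 521.5 untreated. In the deposited effective lengths its MCC950 libraries (291.94 to 308.92) overlapped the untreated ones (291.21 to 298.67). On that column its antibody libraries (305.37 to 315.57) did not. Neat1 has a short isoform and one of 20771 bases, the form known to build paraspeckles. Its weighted length was 3298 ± 20.1 bases untreated, 3301 ± 25.2 with the antibody and 3271 ± 31.6 with MCC950 (SD, n = 3), near the annotated isoform of 3004 bases, and these groups overlapped. Reads in the stretch that the isoforms share were divided between them by estimate. How fully the poly(A) libraries captured the long form was not tested, so its share cannot be read from this length. Snhg1 lengths overlapped as well, at 1020 ± 16.6, 1037 ± 60.3 and 1007 ± 24.9 bases.

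**Figure D5:**
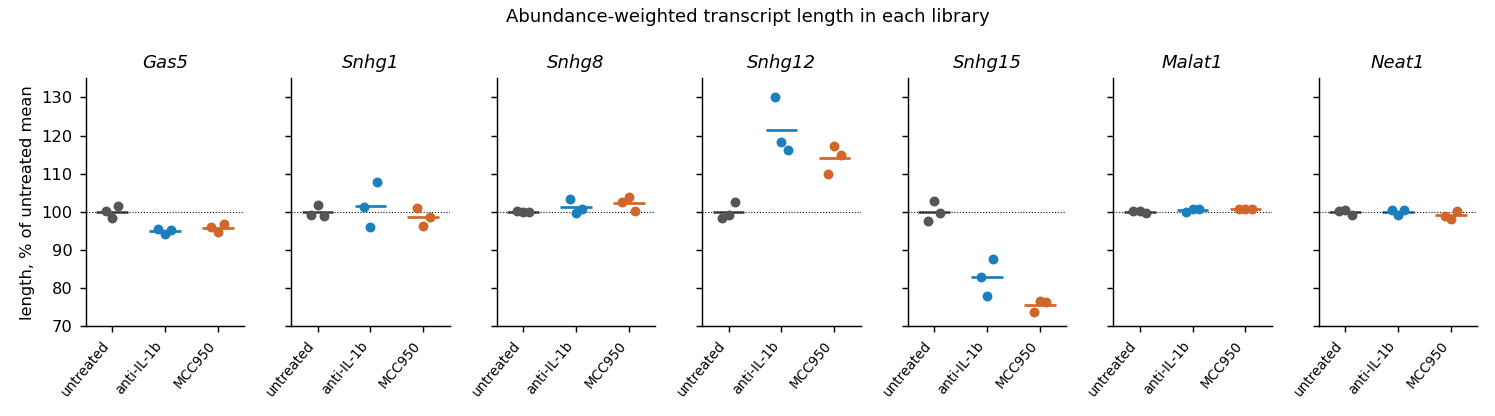
Abundance-weighted transcript length of the 7 RNAs with several isoforms, as a percentage of the untreated mean (y axis, from 70), in each of the 9 libraries (points) with group means (lines). Snhg12 lies above and Snhg15 below the untreated level in all 6 treated libraries, and Gas5 slightly below; Neat1 and Snhg1 overlap between groups.

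Other snoRNA hosts were read beside the 5. The shares of all tested genes called were 34% with the antibody and 36.8% with MCC950. Of 10 tested noncoding snoRNA hosts outside the set, 5 were lower and 2 higher with the antibody and 3 were lower and 2 higher with MCC950, with median log2 fold changes of -0.38 and -0.23. Both medians stayed below 0 under the 4 other scalings, at -0.25 and -0.12 with library totals. These counts leave out Mir17hg, which stood on the list but hosts the microRNAs of the miR-17 cluster, a choice made after the values were seen. Mir17hg itself fell from 50.9 ± 3.50 CPM in untreated cells to 13.1 ± 0.998 under antibody and 11.1 ± 1.55 under MCC950 (SD, n = 3; edgeR log2 fold change -1.95, adjusted p = 1.56e-18, and -2.20, adjusted p = 4.12e-20). Snhg5 fell from 59.7 ± 0.769 to 31.3 ± 2.27 and 38.3 ± 1.18 CPM, and Zfas1 from 54.9 ± 4.12 to 35.5 ± 4.98 and 35.1 ± 1.93 CPM. Snhg17 went the other way, from 56.1 ± 4.68 to 72.7 ± 4.07 and 78.1 ± 3.78 CPM, although its difference was not called in TPM. Not every host of the family fell, then, and Snhg17 and Snhg20 were the hosts that were called higher in both comparisons.

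Among 17 other tested long noncoding RNAs, 7 were higher and 3 lower with the antibody and 3 were higher and 2 lower with MCC950. These counts stand beside 34% and 36.8% of all tested genes called. Cyrano (1700020I14Rik), a long RNA known to trigger the decay of miR-7, rose from 124 ± 3.89 to 192 ± 3.14 and 185 ± 2.08 CPM. Mir22hg, host of miR-22, fell from 4.56 ± 1.26 to 0.624 ± 0.150 and 0.731 ± 0.240 CPM. Peg13, an imprinted RNA, had log2 fold changes of -0.36 and -0.31, not called in TPM, and Norad (2900097C17Rik), which binds Pumilio proteins, of 0.05 (not called) and 0.18. The median of this list was 0.05 with the antibody and 0.08 with MCC950, where it turned to -0.03 in TPM.

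The proteins that work with these RNAs gave a mixed picture. Their counts stand beside 34% of all tested genes called with the antibody and 36.8% with MCC950. Of 15 tested snoRNP proteins and assembly factors, which package snoRNAs, 6 fell with the antibody and none rose, and with MCC950 4 fell and 1 rose. With library totals 5 of these fell and 1 rose with the antibody, while with MCC950 none fell and 6 rose, and in TPM 1 fell and 1 rose, then 1 and 2. Nop56 and Nop58, core proteins of the box C/D particles, had log2 fold changes of -0.28 and -0.29 with the antibody and -0.16 and -0.17 with MCC950, but the MCC950 values were not called with library totals and neither pair was called in TPM, where Nop58 turned to 0.04 with the antibody. Of 22 nonsense-mediated decay factors, 8 were lower and 2 higher with the antibody and 6 lower and 4 higher with MCC950, and with library totals 3 were lower and 6 higher, then 4 and 8. Smg1, the kinase of the pathway, had log2 fold changes of 0.15 and 0.06 (not called). Of 21 paraspeckle proteins, 5 rose and 4 fell with the antibody and 5 rose and 5 fell with MCC950 (under library totals 8 rose and 2 fell, then 10 and 3), among them Tardbp, which binds UG-rich RNA, at 0.39 and 0.47 and Sfpq, a core paraspeckle protein, at -0.34 and -0.19. Of 20 speckle proteins, 8 fell and 5 rose with the antibody and 11 fell and 3 rose with MCC950, but with library totals 6 fell and 10 rose, then 6 and 7. Clk1, a kinase that releases splicing factors from speckles, fell by 0.66 and 0.76, and Srsf3, a splicing factor, by 0.54 and 0.42 on the log2 scale. The medians of the speckle list were only -0.05 and -0.08, and 0.08 and 0.03 with library totals.

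RNAs that share a known form of control with the hosts were counted too. Over all tested genes 18.5% were lower and 15.4% higher with the antibody, and 19.1% and 17.7% with MCC950. Of 9 tested stress mRNAs known to be sensitive to nonsense-mediated decay, 8 fell and none rose in each comparison, with medians of -1.24 and -1.19 that lay between -1.23 and -0.97 under the 4 other scalings. Ppp1r15a, which reverses the stress arrest of translation, fell from 955 ± 38.7 to 131 ± 3.69 and 102 ± 3.45 CPM, and Atf4, a stress transcription factor of the ATF family, from 350 ± 2.03 to 140 ± 4.95 and 154 ± 7.63 CPM (SD, n = 3). Of 18 TOP mRNAs outside the ribosomal proteins, 14 fell and none rose with the antibody, and 10 fell and 1 rose with MCC950, by small amounts (medians -0.15 and -0.10) that gave 3 lower and 2 higher, then 3 lower and 6 higher, with library totals. Of 77 ribosomal protein genes, 71 fell and none rose with the antibody (median -0.18) and 39 fell and 7 rose with MCC950 (median -0.07), which became 35 lower and 2 higher, then 9 lower and 35 higher, with library totals. Heat shock chaperones, a general sign of stress, showed 20 of 21 lower and none higher in both comparisons, with medians of -1.45 and -1.16. Of 17 p53 targets, 9 fell and 1 rose with the antibody and 10 fell and 2 rose with MCC950, and with library totals 8 fell and 6 rose, then 9 and 4. Btg2, an antiproliferative gene of that list, was at -1.54 and -1.39, beside list medians of -0.24 and -0.29. Whether these stress genes and the hosts share a cause was not tested.

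Genes next to the members were read from the annotation. Snhg1 starts 106 bases from Slc3a2, the heavy chain of an amino acid transporter, in the opposite direction, and Slc3a2 fell from 112 ± 3.87 to 72.2 ± 1.39 and 79.4 ± 6.34 CPM (SD, n = 3; edgeR log2 fold change -0.63, adjusted p = 6.31e-12, and -0.49, adjusted p = 2.21e-09). Wdr74, on the other side of Snhg1, was not called in either comparison. Prss12, a protease gene whose end lies 955 bases from that of Snhg8, had -1.20 and -0.57, the latter not called with library totals. Trnau1ap, 739 bases beyond the end of Snhg12, was not called, at -0.11 and 0.07. Beside Snhg15, Myo1g, a myosin of lymphocytes, was higher by 0.19 and 0.24, while Ccm2 was at -0.27 and -0.12, of which the latter was not called with upper-quartile or library-total scaling and neither in TPM. Frmd8, which lies 4224 bases from Neat1, had -0.11 with the antibody, which turned to 0.02 with library totals, and 0.08 with MCC950 (not called). Serpinc1, beside Gas5, was not called in either comparison.

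In the imprinted domain of Kcnq1ot1, 11 of 17 listed genes could be tested. With the antibody 2 rose and 2 fell, and with MCC950 3 rose and 2 fell, so 4 and 5 of 11 were called beside 34% and 36.8% of all tested genes, shares near the background. Cdkn1c, a cell cycle inhibitor that Kcnq1ot1 is known to silence on the paternal chromosome, was at 3.10 ± 0.355 CPM untreated, 1.31 ± 0.989 with the antibody and 1.05 ± 0.300 with MCC950 (SD, n = 3; edgeR log2 fold change -1.24, adjusted p = 0.0212, and -1.56, adjusted p = 0.0039). At this low level the falls were not called in log2(TPM + 1). Tspan32, a tetraspanin of blood cells, was higher by 0.24 and 0.28, and Dhcr7, an enzyme of cholesterol synthesis, by 0.34 and 0.24. The median of the domain was 0.02 with the antibody and -0.02 with MCC950, and the latter was above 0 with upper-quartile and library-total scaling and in TPM.

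For each member the 3 protein-coding genes with the most similar profile over the 9 libraries were found among 9292 genes, by the root mean square difference of centred log2 CPM. This is a description, since the libraries share their groups and scaling. For Snhg15 they were Slc38a2, an amino acid transporter, at a difference of 0.0945, Tob1, an antiproliferative gene, and Tiparp, with Slc38a2 at 808 ± 7.61, 245 ± 6.46 and 232 ± 3.79 CPM in the untreated, antibody and MCC950 groups. For Snhg1 they were Tceal9, Gprasp1 and Zfp281, for Snhg8 Fem1c, Ddx3x and Med26, and for Snhg12 Icos, a costimulatory receptor, Isca1 and Fam107b. For Gas5 they were Rsl1d1, Gatad2a and Cct4, at differences of 0.0251 to 0.0295. Malat1 was closest to Gpr174, Tpp2 and Tlk2, and Kcnq1ot1 to Tha1, Xkrx and Itih5. Neat1 was closest to 2610507B11Rik, Plcg1 and Madd, but its own spread around its mean was only 0.0429, so many genes that change little would lie near it.

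Total counts per library ran from 14775375 to 21394797, and genes with at least 1 count from 16751 to 17528. Naive CD4 T cell markers were all present, with 12 of 12 above 0 in every group and summed levels of 8294 to 8387 CPM untreated, 8139 to 8187 with the antibody and 7754 to 7798 with MCC950. Markers of other cells summed to lower levels than these, and their sums were higher in both treated groups. B cell markers (14 genes) summed to 22.7 to 29.4, 106 to 114 and 115 to 140 CPM, with 13 of 14 higher in each comparison. The shares of all tested genes called higher were 15.4% with the antibody and 17.7% with MCC950. Neutrophil markers (12 genes) summed to 1.10 to 1.34, 35.9 to 37.5 and 16.3 to 20.3 CPM, with 7 of 12 at 0 in the untreated group, among them Il1b. Monocyte, macrophage and dendritic cell markers (12 genes) summed to 151 to 159, 160 to 172 and 178 to 186 CPM, CD8 T and NK cell markers (11 genes, 2 at 0 untreated) to 67.3 to 75.0, 96.9 to 106 and 100 to 105 CPM, and red cell markers (7 genes, 4 at 0 untreated) to 0.122 to 0.445, 4.38 to 5.005 and 6.13 to 10.3 CPM. Of 8 tested CD8 T and NK cell markers, 4 were higher and 1 lower with the antibody and 3 higher and 0 lower with MCC950. The lower one was Prf1, at 45.9 CPM untreated, with a log2 fold change of -0.31. Of 9 tested markers of the monocyte list, 3 were higher and 1 lower, then 5 and 0. Platelet markers (7 genes, 5 at 0 untreated) summed to 168 to 179, 284 to 291 and 290 to 297 CPM, nearly all from Itgb3. Their part in the changes of the 8 RNAs was not tested, and in bulk libraries fewer cells of a type and less RNA per cell cannot be told apart.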

How the data were processed

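Poly(A) RNA of spleen naive CD4+ T cells was sequenced from 3 groups of 3 libraries, grouped by the labels. The authors used STAR and RSEM with mm10, per the submitters' processing notes, with no version given. Each file's expected counts, deposited without normalization, are RSEM estimates of reads per gene. Its TPM values, per the file headers, are abundances that the authors' RSEM run scaled to effective length and library. The deposited lengths, another column of the authors' files, are weighted over isoforms, per the file headers. Of 55487 gene IDs, 99.4% had a symbol in GENCODE M21 or, where it gave none, in a further list of gene names. The 346 others held at most 0.0452% of a library's counts. Of single-isoform genes, 99.8% had the M21 length.

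After rounding, the quasi-likelihood test of edgeR 4.0.16 (R 4.3.3, robust) was run on the expected counts with TMM, filterByExpr (13374 genes), 3 group means, two-sided p-values and Benjamini-Hochberg adjustment over all genes, called under 0.05. The common coefficient of variation was 0.0707, from total counts of 14775375 to 21394797 per library. Tested on simulated data, the test recovered 65%, 71% and 72% of genes changed 1.5-fold and 84%, 84% and 85% of those changed 2-fold for the antibody, MCC950 and between-inhibitor comparisons (13089, 13099 and 13090 genes). It made 2, 7 and 6 false calls among 12889, 12899 and 12890 unchanged genes. The simulation changed 100 genes per fold, equally up and down, far fewer than were called in the data. It therefore does not test how the results depend on scaling. Lengths were compared by exact permutation. Members and gene lists were chosen with earlier results of these data known. Named genes were the 8 members, up to 4 called genes of smallest p per list, the nearest protein-coding gene on each side, and the 3 most similar genes with mean log2 CPM of at least 2, beside single genes of interest chosen after their values were seen (Snhg20, Zbtb37, Kcnq1); some genes these rules name are not reported here. Other settings were scaling by library totals, upper quartiles or RLE, filters of 1 count in all or CPM of 1 in 3 samples, DESeq2 (1.42.0), limma-voom and limma-trend on log2(TPM + 1) (limma 3.58.1), the replicate block, the 6 libraries compared, effective length, and each library left out.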

Additional observations from a re-analysis of the deposited data

How the results depend on the processing

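Of the member fold changes recomputed under other settings, 425 kept direction and side of the threshold, 19 lost the call, 3 gained it and 9 changed sign; the cause was not tested. The sign changes were Malat1 with the antibody (0.0071 with library totals, 0.034 in TPM) and, with libraries left out, Snhg1 (-0.0356 to 0.0828), Snhg8 (-0.0312 to 0.0871), Snhg12 (-0.0889 to 0.0175) and Snhg15 (-0.0830 to 0.0742) between inhibitors, none called. In TPM 5 of 8 RNAs were called with the antibody and 1 between inhibitors, as also with RLE, upper-quartile and library-total scaling (1), and 1 to 2 with libraries left out. Genes called in TPM were 3263 with MCC950 and 572 between inhibitors. The split of higher and lower genes with the antibody was 2687 and 1941 with upper-quartile scaling and 2645 and 865 in TPM, with MCC950 2169 and 1094 in TPM, and between inhibitors 363 and 209 in TPM. Lengths without overlap numbered 3 to 5 with the antibody and 1 to 4 between inhibitors with libraries left out, and 2 between inhibitors by effective length. The replicate block gave 8, 7 and 2 RNAs called and 4483, 4855 and 1704 genes. Deviations of same-numbered libraries were weakly and positively correlated (0.0278 to 0.199, other pairs -0.172 to 0.0826). Each gene was centred within its group, so a positive value for same-numbered pairs forces lower values for other pairs. The ranges are therefore not independent. The pairs of replicate 2 were at 0.188, 0.127 and 0.199. What same-numbered libraries share is not stated by the labels and was not tested. The 95% intervals given for the differences between inhibitors show what these libraries left unresolved.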
